A study of Mus musculus with 10 samples.

Results

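Hnf4a, Hnf4g, Pax2, Pax8, Tfcp2l1, Pou3f3, Esrrb and Esrrg encode transcription factors that keep the identity of the proximal tubule, the loop of Henle and distal tubule, and the collecting duct. They were picked by gene symbol for that role, and all 8 were among the 13299 genes measured in kidneys of old Rragc S74N/+ and Rragc +/+ mice. In Rragc S74N/+ kidneys the orphan nuclear receptor gene Esrrb was lower, with a mean of 46.5% of the Rragc +/+ mean. It was the only one of the 8 past the threshold, which 6.03% of all tested genes passed, 2.58% as lower. The call of Esrrb held in 5 of 10 fits that each left out 1 kidney, and the gene rested on 15 to 80 reads per kidney. Pou3f3 and Hnf4a had mean levels of 72.0% and 73.6% of those of Rragc +/+ kidneys but did not pass after adjustment over all genes. For Tfcp2l1 the 95% interval of the change ran from 83.9% to 115% of the Rragc +/+ level.

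A nephron is a single tube of epithelium whose successive segments recover different solutes, and each segment is kept in its state by its own set of transcription factors. HNF4A and HNF4G are nuclear receptors of the proximal tubule, POU3F3 (also called BRN1) is a POU-domain factor of the loop of Henle and distal tubule, and TFCP2L1 is a grainyhead-family factor of the collecting duct. PAX2 and PAX8 are paired-box factors that found the whole nephric lineage and remain on in parts of the adult tubule, while ESRRB and ESRRG are estrogen-related receptors, which bind no known natural hormone and drive genes of oxidative metabolism and ion transport.

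Rragc encodes RagC, a small GTPase through which nutrients act on the kinase complex mTORC1, and S74N is an activating change. The mice were C57BL/6 animals aged 1.5 years. Of the 10 kidneys, 5 came from Rragc S74N/+ mice, which carry in every cell 1 knock-in allele edited in exon 1 with added silent changes, and 5 came from wild-type Rragc +/+ mice. Messenger RNA was sequenced from its 3′ end, so a level, given here as a normalized count, does not grow with the length of the transcript. Because a knock-in in the whole body was compared in bulk kidney tissue, fewer cells of a segment and less RNA per cell cannot be told apart in any value below. Depth was 4488493 to 5797251 reads per kidney. The proximal tubule phosphate transporter gene Slc34a1 had 18242 and 16084 normalized counts in Rragc +/+ and Rragc S74N/+ kidneys. The Y-linked genes Ddx3y, Eif2s3y, Kdm5d and Uty were detected in every kidney. The sample titles carry numbers on either side of 200, 3 kidneys of each genotype under and 2 over, and what they stand for is not given in the sources used here.

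Promoter windows, the 250 bases before a transcription start in the RefSeq annotation of build GRCm38.p6, were read for 7 of the 8 genes, all but Hnf4g, 14 windows in all. Those of Esrrb are shown because it alone passed the threshold, and that of Pou3f3 and the downstream one of Hnf4a because these genes had the next smallest p-values. All lie on the plus strand and are given 5′ to 3′. A match to either motif searched, on either strand, would stand in capitals, and none of the windows shown holds one.
Esrrb, chr12:86360867-86361116: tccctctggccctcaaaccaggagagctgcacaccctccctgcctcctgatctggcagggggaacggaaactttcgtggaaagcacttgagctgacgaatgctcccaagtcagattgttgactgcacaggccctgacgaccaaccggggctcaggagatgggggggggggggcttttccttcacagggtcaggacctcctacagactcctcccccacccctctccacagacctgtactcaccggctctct
Esrrb, chr12:86421394-86421643: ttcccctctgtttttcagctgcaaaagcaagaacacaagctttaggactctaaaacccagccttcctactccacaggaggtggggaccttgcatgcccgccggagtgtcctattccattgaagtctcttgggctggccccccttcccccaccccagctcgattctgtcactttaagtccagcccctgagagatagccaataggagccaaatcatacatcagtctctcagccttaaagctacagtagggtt
Pou3f3, chr1:42695518-42695767: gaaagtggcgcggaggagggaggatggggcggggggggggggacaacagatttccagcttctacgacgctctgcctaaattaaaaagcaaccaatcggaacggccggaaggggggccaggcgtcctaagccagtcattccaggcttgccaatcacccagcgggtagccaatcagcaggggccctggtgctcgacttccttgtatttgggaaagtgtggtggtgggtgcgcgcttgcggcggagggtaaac
Hnf4a, chr2:163546905-163547154: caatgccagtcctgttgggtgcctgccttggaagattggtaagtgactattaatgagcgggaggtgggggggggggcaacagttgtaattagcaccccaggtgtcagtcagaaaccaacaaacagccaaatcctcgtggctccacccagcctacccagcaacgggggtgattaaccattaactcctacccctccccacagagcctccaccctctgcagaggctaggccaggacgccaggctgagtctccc
Each window ends at the base before the start site. CACGTG, the core bound by the MiT factors TFEB and TFE3 that lie downstream of RagC, was in 0 of the 14 windows and in 6.02% of all 32817 windows of the annotation. AAGGTCA, the letters that estrogen-related receptors bind, was in 0 of the 14 and in 4.08% of all windows. The counts describe only the letters in these windows, and neither motif contains the other.

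Levels differed widely among the 8 genes. In Rragc +/+ kidneys they ran from a mean of 25.3 normalized counts for Hnf4g to 926 for Hnf4a, in the descending order Hnf4a, Tfcp2l1, Pou3f3, Pax8, Pax2, Esrrg, Esrrb and Hnf4g. The ranges over the 5 kidneys overlapped for 2 neighbouring pairs in that order, Tfcp2l1 with Pou3f3 and Pax8 with Pax2, each in that order within 4 of 5 kidneys. In Rragc S74N/+ kidneys the mean of Pax2 stood before that of Pax8, although Pax2 was above Pax8 in only 1 of 5 kidneys, replicate 1. Hnf4g stood before Esrrb, in that order within 4 of 5 kidneys. Only Pax8 with Esrrg and Esrrg with Hnf4g kept ranges apart.

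**Figure D1:**
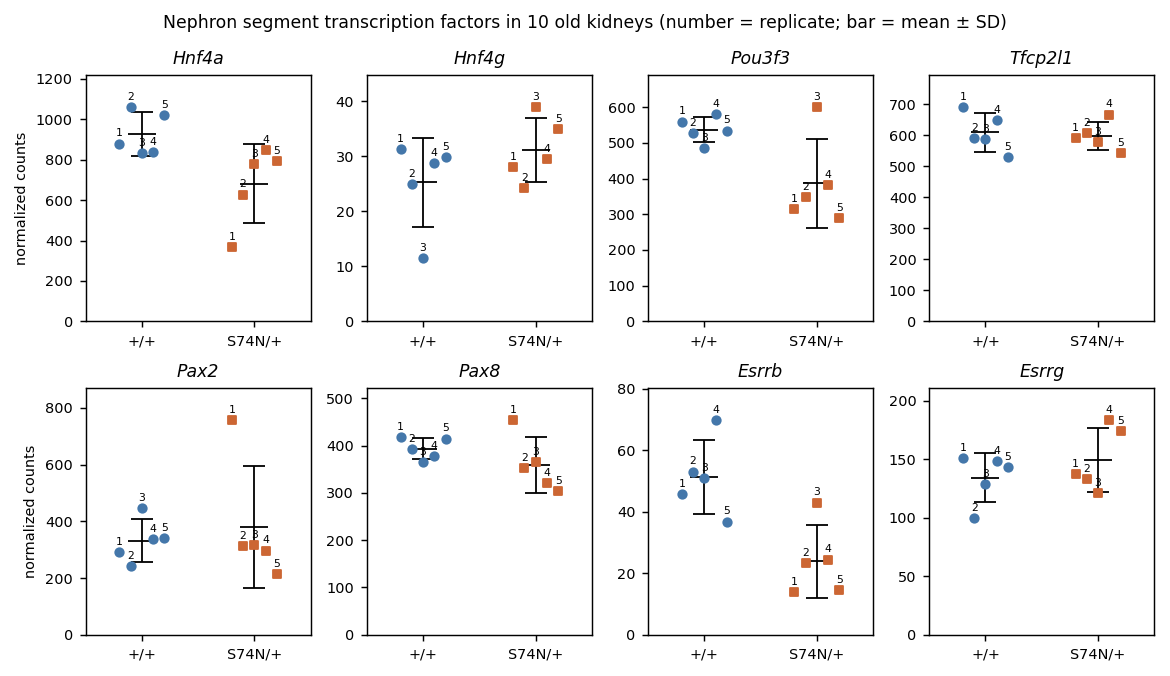
Normalized count of each of the 8 factors (y axis, linear, from 0) in every Rragc +/+ (circles) and Rragc S74N/+ (squares) kidney, numbered by replicate, with the mean ± SD of each group. For Esrrb, Pou3f3 and Hnf4a 4 of 5 Rragc S74N/+ kidneys lie below all Rragc +/+ kidneys, and for Pax2 Rragc S74N/+ replicate 1 lies far above the other 9.

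The first comparison asked which of these factors differed with genotype, by limma across all 13236 tested genes with Benjamini-Hochberg adjustment and a threshold of 0.05. Of the 8 genes, 1 passed as lower and 0 as higher, while 2.58% of all tested genes passed as lower, 3.45% as higher and 6.03% in either direction. At an unadjusted p under 0.05 there were 3, against 25.4% of all tested genes. edgeR and DESeq2 on recovered reads also called 1 of the 8. The groups overlapped for all 8 genes, whereas they did not overlap for 8.16% of all tested genes, 4.01% with Rragc S74N/+ lower. The log2 fold change, always Rragc S74N/+ over Rragc +/+, was negative for 5 and positive for 3, with a median of -0.09 beside -0.01 over all tested genes.

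Of the proximal tubule pair, Hnf4a encodes the nuclear receptor that turns on the transporters of mature proximal tubule cells. Its normalized counts in Rragc +/+ replicates 1 to 5 were 879, 1061, 832, 838 and 1021, and in Rragc S74N/+ replicates 1 to 5 they were 366, 627, 779, 845 and 791. The Rragc S74N/+ kidneys lay lower except replicate 4, which was level with the lowest Rragc +/+ kidneys, so that the groups met at their edges. The Rragc +/+ mean was 926 ± 107 (SD, n = 5) and the Rragc S74N/+ mean 682 ± 194 (SD, n = 5). The log2 fold change was -0.49 ± 0.19 (SE), with a 95% interval of -0.89 to -0.10, and did not pass (limma, adjusted p = 0.117). Without Rragc S74N/+ replicate 1, the lowest kidney, it was -0.29. Among kidneys with title numbers under 200 it was -0.70 (limma, adjusted p = 0.189) and among those over 200 it was -0.18 (limma, adjusted p = 0.509).

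Hnf4g, the paralog with a closely related DNA-binding domain, was the least abundant of the 8 and rested on 12 to 39 reads per kidney. Normalized counts were 31.3, 24.97, 11.5, 28.8 and 29.8 in Rragc +/+ and 28.0, 24.2, 39.0, 29.5 and 35.0 in Rragc S74N/+ replicates 1 to 5. Rragc +/+ replicate 3 was low, Rragc S74N/+ replicates 3 and 5 were above every Rragc +/+ kidney, and the others were mixed. The log2 fold change of 0.35 ± 0.28 (SE; 95% interval -0.24 to 0.94) did not pass (limma, adjusted p = 0.46). Without Rragc +/+ replicate 3 it was 0.098, and it was 0.49 and 0.13 among kidneys with title numbers under and over 200.

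For the loop of Henle and distal tubule, Pou3f3 encodes a factor needed for the loop to elongate and for its transport genes to come on. Rragc +/+ kidneys had 559, 526, 485, 581 and 534 normalized counts and Rragc S74N/+ kidneys had 313, 348, 601, 381 and 290, replicates 1 to 5. Rragc S74N/+ replicates 1, 2, 4 and 5 lay below every Rragc +/+ kidney, and replicate 3 lay above every one of them. The means were 537 ± 36.3 (SD, n = 5) and 387 ± 125 (SD, n = 5), so the SD among Rragc S74N/+ kidneys was 3.44 times that among Rragc +/+ kidneys. With all 10 kidneys the log2 fold change was -0.52 ± 0.16 (SE; 95% interval -0.87 to -0.18) and did not pass (limma, adjusted p = 0.067). Without Rragc S74N/+ replicate 3 it was -0.69 and passed (limma, adjusted p = 0.00465). Among kidneys with title numbers under 200, which include that replicate, it was -0.37 (limma, adjusted p = 0.384), and among those over 200 it was -0.74 (limma, adjusted p = 0.0048). The same Rragc S74N/+ replicate 3 had the highest summed level of 7 thick ascending limb markers in its group, 11228 normalized counts beside 5191 to 8421 in the other 4 Rragc S74N/+ and 11314 to 15304 in the Rragc +/+ kidneys. Its summed level of 5 distal convoluted tubule markers, 1844, lay within the Rragc S74N/+ range of 1492 to 2597. The part of either in the Pou3f3 value was not tested.

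Esrrb, an estrogen-related receptor gene known for its place in pluripotent stem cells and, in the kidney, for expression in distal epithelium, fell. Normalized counts were 45.9, 53.1, 50.9, 69.9 and 36.8 in Rragc +/+ replicates 1 to 5 and 14.0, 23.3, 43.0, 24.4 and 14.6 in Rragc S74N/+ replicates 1 to 5. Again 4 of 5 Rragc S74N/+ kidneys lay below all Rragc +/+ kidneys, and replicate 3, the highest of its group, lay inside the Rragc +/+ range. The mean went from 51.3 ± 12.1 (SD, n = 5) to 23.9 ± 11.7 (SD, n = 5), a log2 fold change of -1.16 ± 0.29 (SE; 95% interval -1.77 to -0.55; limma, adjusted p = 0.0285). The gene rested on 15 to 80 reads per kidney. Leaving out single kidneys gave log2 fold changes of -1.39 to -1.01, and the call held in 5 of 10 such fits. It was lost without Rragc +/+ replicate 1 (limma, adjusted p = 0.0605), 2 (0.0763), 3 (0.0515) or 4 (0.0752) and without Rragc S74N/+ replicate 5 (0.0715). Among kidneys with title numbers under 200 the log2 fold change was -1.01 (limma, adjusted p = 0.20) and among those over 200 it was -1.38 (limma, adjusted p = 0.0467).

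Esrrg, the paralog best known for mitochondrial and transport genes in the distal nephron, had 151, 99.9, 129, 148 and 143 normalized counts in Rragc +/+ and 137, 133, 121, 183.3 and 174 in Rragc S74N/+ replicates 1 to 5. The groups were mixed, with Rragc S74N/+ replicates 4 and 5 above every Rragc +/+ kidney. Its log2 fold change was 0.15 ± 0.16 (SE; 95% interval -0.19 to 0.49) and did not pass (limma, adjusted p = 0.588). Leaving out Rragc +/+ replicate 2 gave 0.050, leaving out Rragc S74N/+ replicate 4 gave 0.075 and leaving out replicate 5 of that genotype gave 0.094, and it was 0.060 and 0.29 among title numbers under and over 200.

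In the collecting duct group, Tfcp2l1 encodes a factor that governs the make-up of principal and intercalated cells. Rragc +/+ kidneys had 691, 591, 587, 647 and 528 normalized counts and Rragc S74N/+ kidneys had 589, 606, 578, 666 and 543, replicates 1 to 5. Every Rragc S74N/+ kidney lay inside the Rragc +/+ range. The means were 609 ± 62.4 (SD, n = 5) and 596 ± 45.2 (SD, n = 5), and the log2 fold change was -0.03 ± 0.11 (SE; 95% interval -0.25 to 0.20; limma, adjusted p = 0.904). This was the narrowest interval of the 8, and the sign of the change turned when kidneys were scaled to equal sums of counts, to 0.052.

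Pax8, which works together with Pax2 in the nephric lineage, varied little among Rragc +/+ kidneys, with 418, 393, 365, 378 and 415 normalized counts, beside 454, 352, 366, 321 and 303 in Rragc S74N/+ kidneys. Rragc S74N/+ replicates 2, 4 and 5 lay below all Rragc +/+ kidneys and replicate 1 above them. The log2 fold change of -0.15 ± 0.12 (SE; 95% interval -0.40 to 0.11) did not pass (limma, adjusted p = 0.478). It was -0.23 without Rragc S74N/+ replicate 1, -0.088 without replicate 5 of that genotype and -0.066 with kidneys scaled to equal sums, and it was -0.013 and -0.34 among title numbers under and over 200.

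Pax2, which stays on in the collecting duct, had 291, 242, 447, 338 and 340 normalized counts in Rragc +/+ and 757, 313, 317, 296 and 213 in Rragc S74N/+ replicates 1 to 5. Rragc S74N/+ replicate 1 stood far above all others, Rragc +/+ replicate 3 was next, and the other 8 kidneys were mixed. The means were 332 ± 76.0 (SD, n = 5) and 379 ± 215 (SD, n = 5), and the log2 fold change was 0.08 ± 0.26 (SE; 95% interval -0.47 to 0.62; limma, adjusted p = 0.883). Without Rragc S74N/+ replicate 1 it was -0.21, and it was 0.42 and -0.43 among title numbers under and over 200. In Rragc S74N/+ replicate 1 the collecting duct factor gene Gata3 was at 422 normalized counts, beside 118 to 256 in the other 9 kidneys. The collecting duct factor genes Ehf, Gata2, Grhl2 and Tfap2a were also at their highest of all kidneys there, at 222, 86.7, 59.7 and 57.8. So were Slc14a2 and Aqp4, which are linked to PAX2 and PAX8, at 111 and 121. Other genes of these segments went the other way. The collecting duct factor genes Hoxd8 and Foxi1 were at their lowest of all kidneys there, at 140 and 2.80. The connecting tubule and principal cell marker genes Calb1, Hsd11b2 and Scnn1b were too, at 435, 186 and 42.0. The principal cell water channel gene Aqp2 was at 1594 there, at 1568 in Rragc S74N/+ replicate 2, at 2145 in Rragc +/+ replicate 3, and at 317 to 714 in the other 7. The summed level of 9 connecting tubule and principal cell markers in that kidney, 3354, lay within the Rragc +/+ range of 2527 to 5364. Aqp2 is 1 of the 9 and made up 1594 of that sum. It made up 2145 of the 5364 in Rragc +/+ replicate 3, and the other Rragc +/+ kidneys had sums of 2527 to 3512. The part of these genes in the Pax2 values was not tested.

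**Figure D2:**
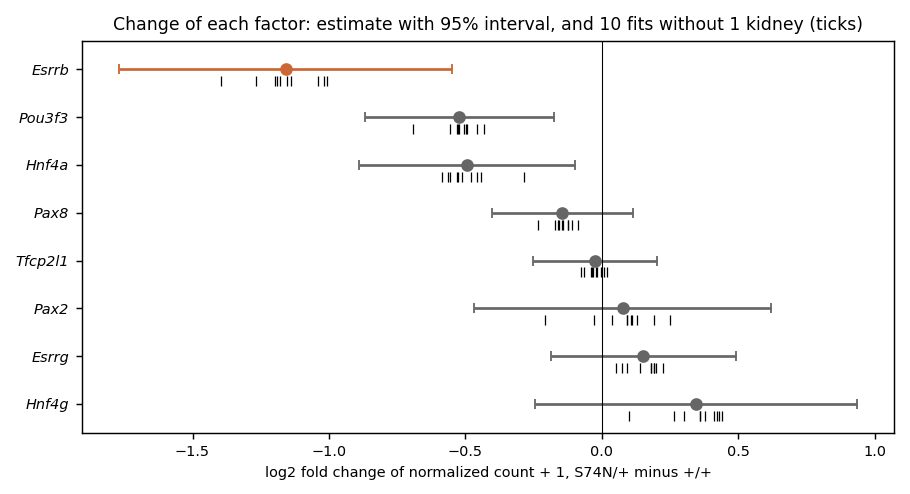
Log2 fold change of each factor, Rragc S74N/+ over Rragc +/+ (x axis, log2 of normalized count + 1), with its 95% interval, and below it as ticks the values of the 10 fits that each leave out 1 kidney. Esrrb (colored, past the threshold) stays between -1.39 and -1.01, while the ticks of Pax2 and Tfcp2l1 lie on both sides of 0.

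A second comparison asked whether paralogs shifted against each other, from the log2 ratio of the pair within each kidney, which does not depend on scaling between kidneys. For 3 pairs the genotypes were allotted to the 10 kidneys in every possible way (exact permutation test, two-sided, adjusted over the 3), which can give no p below 0.00794. The Hnf4g to Hnf4a log2 ratio averaged -5.27 ± 0.56 (SD, n = 5) with the Rragc +/+ genotype and -4.41 ± 0.44 (SD, n = 5) with Rragc S74N/+, a difference of 0.86 (exact permutation p = 0.0159, adjusted p = 0.0357). Hnf4g thus made up 2.65% ± 0.85 (SD, n = 5) of the pair in Rragc +/+ kidneys and 4.64% ± 1.47 (SD, n = 5) with Rragc S74N/+, and 4 of 5 Rragc S74N/+ kidneys had a higher ratio than every Rragc +/+ kidney. This ratio uses the same Hnf4a and Hnf4g values as above, and neither gene passed alone. Gene pairs beyond these 3 were not tested. The call was lost without Rragc +/+ replicate 2 or 3 and without Rragc S74N/+ replicate 1, 3 or 5 (exact permutation, adjusted p = 0.0595 each), and without Rragc +/+ replicate 3, whose 12 Hnf4g reads were the fewest, the difference was 0.63.

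The Esrrb to Esrrg log2 ratio averaged -1.40 ± 0.43 (SD, n = 5) with the Rragc +/+ genotype and -2.76 ± 0.81 (SD, n = 5) with Rragc S74N/+, a difference of -1.35 (exact permutation p = 0.0238, adjusted p = 0.0357). Of the reads of the pair, Esrrb took 27.8% ± 5.91 (SD, n = 5) in Rragc +/+ kidneys and 14.0% ± 7.36 (SD, n = 5) with Rragc S74N/+. This ratio uses the same Esrrb values as the call above and is not separate evidence. Its call was lost without Rragc +/+ replicate 2, 3 or 4 and without Rragc S74N/+ replicate 1 or 5 (exact permutation, adjusted p = 0.0595 each). For Pax8 to Pax2 the ratios were 0.28 ± 0.38 (SD, n = 5) and 0.05 ± 0.47 (SD, n = 5), and the difference of -0.22 did not pass (exact permutation p = 0.421).

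**Figure D3:**
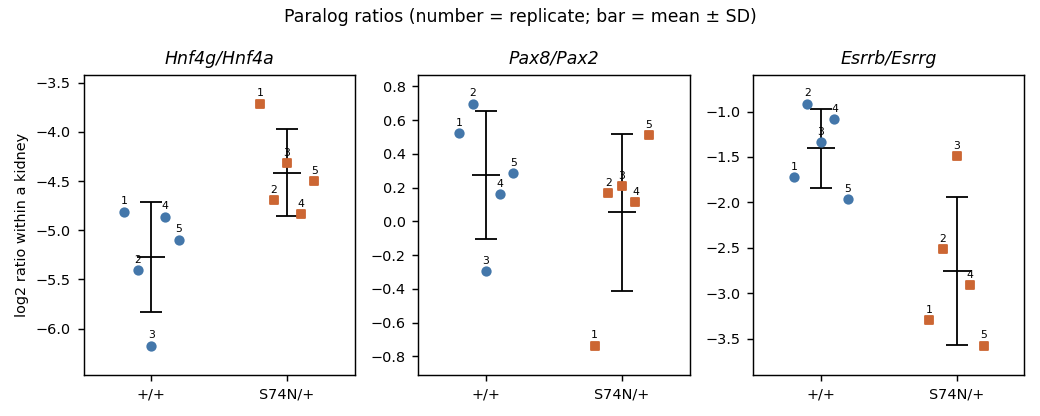
Log2 ratio of the paralogs within each kidney (y axis) for Hnf4g to Hnf4a, Pax8 to Pax2 and Esrrb to Esrrg, with replicates numbered and the mean ± SD of each genotype. In the Hnf4g to Hnf4a and Esrrb to Esrrg panels 4 of 5 Rragc S74N/+ kidneys lie outside the Rragc +/+ range, above it and below it respectively.

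To describe what else moved with Esrrb, tested genes with a mean of at least 50 normalized counts were ranked by Pearson correlation of log2 values with Esrrb over the 10 kidneys, which share the genotype difference. Of 7742 genes the highest were Ppp1r1a (r = 0.95), a phosphatase inhibitor gene, Sppl3 (r = 0.94), an intramembrane protease gene, and Fnip1 (r = 0.94), whose product joins folliculin upstream of RagC. Over deviations from the genotype means the r values were 0.86, 0.85 and 0.84. The genes were chosen by their r in the same 10 kidneys, so these values are not separate evidence. How high r runs by chance among 7742 genes was not tested. Ppp1r1a fell by 0.89 on the log2 scale (limma, adjusted p = 0.0183), a call lost without Rragc +/+ replicate 1, 2 or 4 or Rragc S74N/+ replicate 5 (limma, adjusted p up to 0.0567). Sppl3 had a log2 fold change of -0.29 and Fnip1 of -0.39, and neither passed (limma, adjusted p = 0.152 and 0.0786).

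The 8 factors were next set beside other transcription factors of the nephron epithelium, of which 28 were tested. Of all tested genes 2.58% passed as lower and 3.45% as higher, the shares beside which these counts and those of the lists below stand. All of these lists were chosen with earlier results of these data known. Of the 7 other proximal tubule factors 1 was lower, Maf, a bZIP factor gene, at 5236 normalized counts in Rragc +/+ and 2679 in Rragc S74N/+ kidneys (log2 fold change -1.001; limma, adjusted p = 0.0043). Like Hnf4a, Maf was at its lowest in Rragc S74N/+ replicate 1, at 1535 beside 2829 to 3090 in the other 4. Of 10 other loop and distal factors 3 were lower, the LIM homeobox gene Lhx1 (432 to 206 normalized counts, log2 fold change -1.09; limma, adjusted p = 0.00047), the homeobox gene Emx1 (206 to 89.0, -1.21; adjusted p = 0.00109) and the zinc finger gene Sall3 (67.6 to 27.7, -1.27; adjusted p = 0.0026). Unlike Esrrb and Pou3f3, these 3 genes and Maf had groups that did not overlap, as had 4.01% of all tested genes with Rragc S74N/+ lower. Of 11 other collecting duct factors the ETS factor gene Ehf was higher (51.8 to 124, 1.31; limma, adjusted p = 0.0365) and the homeobox gene Hoxd8 lower (409 to 236, -0.82; limma, adjusted p = 0.0198). The call of Ehf held in 3 and that of Hoxd8 in 7 of 10 fits without 1 kidney (limma, adjusted p up to 0.0926 and 0.0632). Hoxd8 lost its call without Rragc +/+ replicate 1 or 2 or Rragc S74N/+ replicate 5, and Ehf kept its call only without Rragc +/+ replicate 3 or Rragc S74N/+ replicate 1 or 4.

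**Figure D4:**
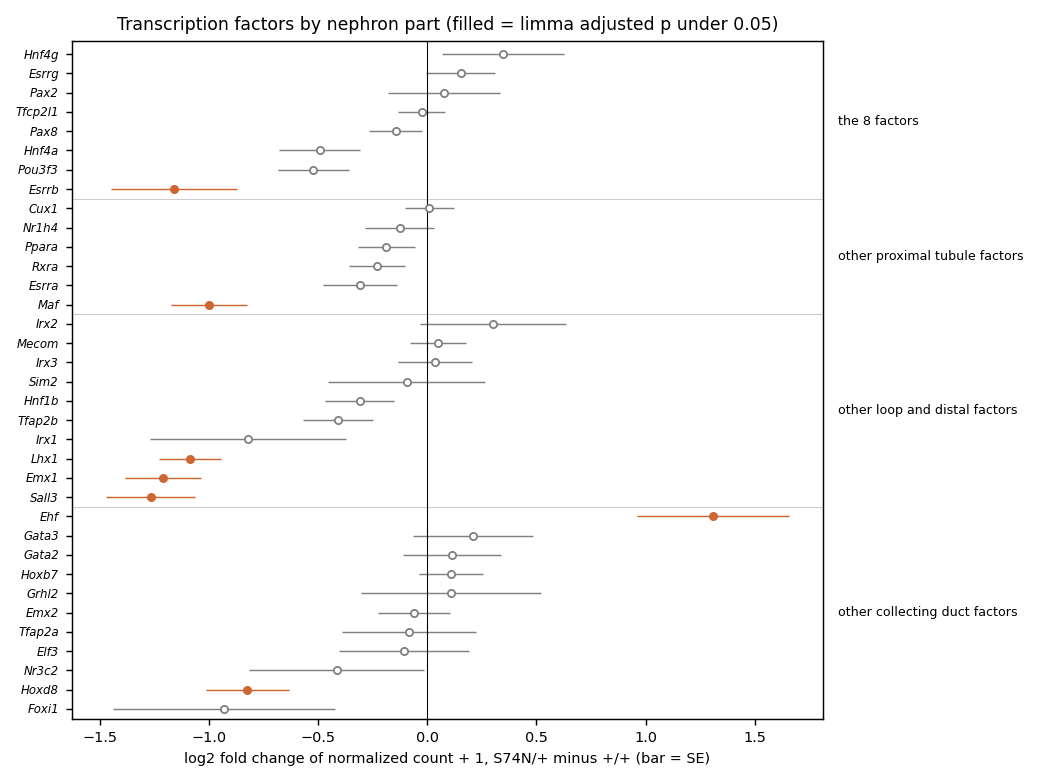
Log2 fold change, Rragc S74N/+ over Rragc +/+ (x axis, log2 of normalized count + 1), with its SE, of the 8 factors described and of other factors of the proximal tubule (6 plotted), loop and distal tubule, and collecting duct. Filled points passed the threshold, Esrrb among the 8 factors, 1 of the other proximal, 3 of the other loop and distal and 2 of the other collecting duct factors.

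Genes known to depend on each factor were then counted, from short lists drawn from general knowledge of the kidney, likewise with earlier results known. Of 8 tested genes linked to HNF4A 1 was higher and 0 were lower. It was Pck1, the gluconeogenic enzyme gene, which went from 1264 to 1949 normalized counts (log2 fold change 0.62; limma, adjusted p = 0.0316), a call lost without Rragc +/+ replicate 2, 4 or 5 or Rragc S74N/+ replicate 2 or 4 (limma, adjusted p up to 0.0883). The organic anion transporter gene Slc22a6, a textbook HNF4A target, was at 1972 and 1923 normalized counts. In Rragc S74N/+ replicate 1, the kidney with the lowest Hnf4a, Slc22a6 was at 1057, beside 1744 to 2316 in all other kidneys. Slc22a8 and G6pc, also linked to HNF4A, were likewise at their lowest of all kidneys there, at 1136 and 1598. Pck1 was at its highest in that same kidney, at 2412. The other genes of the list were at neither extreme there. The median log2 fold change of these 8 genes was 0.05, beside -0.49 for Hnf4a itself.

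Of 6 genes linked to POU3F3 3 were lower. Umod, which encodes uromodulin of the thick ascending limb, went from 5806 to 2119 normalized counts (log2 fold change -1.55; limma, adjusted p = 0.0013). Ptger3, a prostaglandin receptor gene, had a log2 fold change of -2.05 (limma, adjusted p = 0.00148) and Bsnd, the chloride channel subunit gene, one of -1.06 (limma, adjusted p = 0.00897). Slc12a1, the sodium-potassium-chloride cotransporter gene of the same segment, was at 3129.6 and 3318 normalized counts (log2 fold change 0.04; limma, adjusted p = 0.909). Umod and Slc12a1, like Pou3f3, were highest among Rragc S74N/+ kidneys in replicate 3, at 3306 and 5062.

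Among 9 tested genes linked to the estrogen-related receptors 1 was higher and 1 lower. Acadm, a fatty acid oxidation enzyme gene, rose by 0.65 on the log2 scale (limma, adjusted p = 0.00796). Ppargc1a, the coactivator gene whose product works with these receptors, had a log2 fold change of -0.52 (limma, adjusted p = 0.0472), a call that held in 2 of 10 fits without 1 kidney, those without Rragc +/+ replicate 5 or Rragc S74N/+ replicate 3 (limma, adjusted p up to 0.104 in the other 8). Esrra, the third receptor of the family, was at 115 and 92.1 normalized counts (limma, adjusted p = 0.264). The median over the 9 genes was -0.31. Of 6 genes linked to TFCP2L1 1 was lower, the intercalated cell anion exchanger gene Slc4a1 (log2 fold change -1.19; limma, adjusted p = 0.00918), and of 4 linked to PAX2 and PAX8 0 passed, among them Aqp2 (0.31; limma, adjusted p = 0.73) and the basolateral water channel gene Aqp3 (-0.43; limma, adjusted p = 0.216).

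Markers of the segments were read to place the factors beside the cells that hold them. Of 12 proximal tubule markers 2 were lower, Slc5a2 and Gatm (log2 fold change -1.05 and -1.03; limma, adjusted p = 0.000476 and 0.000619), and the summed level of the 12 was 35116 to 43006 in Rragc +/+ and 34213 to 44228 in Rragc S74N/+ kidneys. For the thick ascending limb, to which Pou3f3 belongs, 4 of 7 markers were lower (Umod, Ptger3, Egf and Cldn10), with summed levels of 11314 to 15304 and 5191 to 11228. Genes of this list, among them Umod, Ptger3 and Slc12a1, were also counted above as linked to POU3F3, so the counts are not separate evidence. Cldn10 kept its call in 3 of 10 fits without 1 kidney, those without Rragc +/+ replicate 5 or Rragc S74N/+ replicate 1 or 3 (limma, adjusted p up to 0.119 in the others). All 5 distal convoluted tubule markers were lower, and their summed level was 5269 to 6350 in Rragc +/+ and 1492 to 2597 in Rragc S74N/+ kidneys. Slc12a3, the thiazide-sensitive cotransporter gene, went from 4056 to 1078 normalized counts, Klhl3, a gene of the ubiquitin ligase that controls it, from 490 to 182, Pvalb, a calcium-binding protein gene, from 113 to 4.82 and Trpm6, a magnesium channel gene, from 83.0 to 28.9. The part of fewer or altered distal cells in the fall of Esrrb was not tested. For the connecting tubule and principal cells, 1 of 9 markers was lower, Calb1 (log2 fold change -0.74; limma, adjusted p = 0.00918), with summed levels of 2527 to 5364 and 2558 to 4008, and Tfcp2l1 stayed inside its Rragc +/+ range. Of 7 intercalated cell markers Slc26a4 was higher and Slc4a1 and Aqp6 lower, with summed levels of 780 to 967 and 773 to 929. Slc4a1 was also counted above as linked to TFCP2L1. Slc26a4 held its call in 2 of 10 fits without 1 kidney, those without Rragc S74N/+ replicate 1 or 2, and Aqp6 in 3, those without Rragc +/+ replicate 5 or Rragc S74N/+ replicate 1 or 3 (limma, adjusted p up to 0.114 and 0.0993 in the others).

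**Figure D5:**
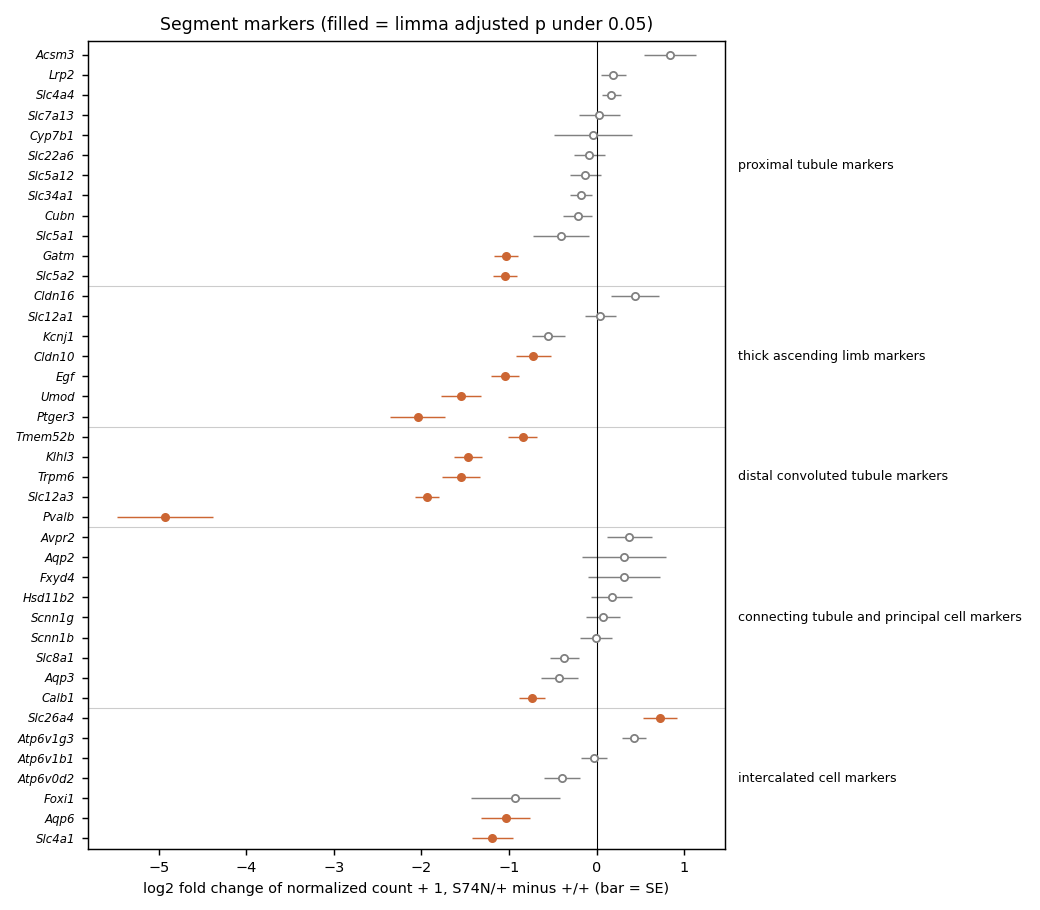
Log2 fold change, Rragc S74N/+ over Rragc +/+ (x axis, log2 of normalized count + 1), with its SE, of marker genes of 5 nephron segments. Filled points passed the threshold, and all 5 distal convoluted tubule markers lie to the left of 0 while 8 of 9 connecting tubule and principal cell markers did not pass.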

How the data were processed

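RNA of 10 kidneys (5 Rragc S74N/+, 5 Rragc +/+) was sequenced with an oligo-dT primed 3′ kit. Per the labels and the methods of the study, reads were checked with FastQC 0.11.7, aligned to GRCm39 with TopHat2 2.0.10, Bowtie 1.0.0 and SAMtools 0.1.19, and sense-strand reads of each gene were counted with HTSeq 0.6.1 on a GENCODE annotation. The deposited signal values are read counts that the authors divided by a size factor per sample; low genes were dropped by a rule not given in the sources used here, and 0 columns of per-sample values were left unassigned.

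Genes with 5 or more normalized counts in 5 or more samples were tested (13236 of 13299). Log2 of the normalized count plus 1, a scale that understates changes of low genes, entered limma 3.58.1 (R 4.3.3), with no term besides genotype and an eBayes trend, two-sided, with Benjamini-Hochberg adjustment over all tested genes at 0.05. Whole reads were recovered in all 10 samples, with 100% of values within 0.01 of a whole number, and entered the quasi-likelihood test of edgeR 4.0.16, and DESeq2 1.42.0, as alternatives. Replicates were numbered by order of deposit and are kidneys of 5 separate mice per genotype, per the methods of the study. Code for the tests was first tested on simulated data. All 8 factors were named. From every other list came the genes past the threshold, at most the 4 with the smallest p. Where none passed, the 2 with the largest level were named. Slc22a6, Slc22a8, G6pc, Slc12a1, Esrra, Slc34a1, Slc14a2, Aqp4, Hsd11b2, Scnn1b and the sex-linked genes were named outside that rule, after their values were seen. The same holds for the factor genes Gata2, Gata3, Grhl2, Tfap2a and Foxi1. The 8 factors and all lists were chosen with earlier results of these data known. Promoter sequences are those of RefSeq for GRCm38.p6, matched by gene symbol. Results on some genes of the lists are not reported here.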

Additional observations from a re-analysis of the deposited data

Results flagged for a closer look

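Among 22 groups of 5 values searched, 1 held a kidney far from the others of its group by Dixon's criterion (gap over range above 0.71), where chance gives about 1.1, or 1 in 20 groups. It was Pax2 in Rragc S74N/+ replicate 1, at 757.2 normalized counts, beside 212.8 to 316.9 in the other 4 Rragc S74N/+ kidneys, a gap of 0.809 of the range.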

How the results depend on the processing

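Other settings comprised pseudocounts of 0.5 and 5, all genes kept or a mean of at least 50, equal sums or equal 75th percentiles, no trend, robust eBayes, a block for the title numbers, edgeR, DESeq2 and leaving out each kidney, plus voom and fits within title numbers under and over 200, which were chosen after seeing the data. Genes past the threshold numbered 798 (457 higher, 57.3%), 391 without the trend, 1351 with DESeq2, and 311 to 902 without single kidneys; with equal sums they numbered 943, 76.1% higher. Of the 8 factors 1 passed, 0 without the trend and 0 at a mean of at least 50, which removed Esrrb and Hnf4g, and 0 to 2 without single kidneys. Esrrb was -1.16 without the trend (limma, adjusted p = 0.0579), -1.01 under 200, and -1.39 to -1.01 without single kidneys; of the 11 settings on all 10 kidneys that kept Esrrb, it passed in 10. Pou3f3 was -0.69 to -0.43 without single kidneys and -0.74 over 200, Tfcp2l1 0.052 with equal sums, 0.041 over 200 and -0.076 to 0.020 without single kidneys, and Pax2 -0.43 over 200 and -0.21 to 0.25 without single kidneys. The paralog differences were 0.63 to 0.97 (Hnf4g to Hnf4a) and -1.67 to -1.15 (Esrrb to Esrrg) without single kidneys, where 9 kidneys allow fewer allocations. Without the trend the calls of Ehf, Hoxd8, Pck1, Ppargc1a, Cldn10, Tmem52b, Slc26a4, Aqp6, Synpo, Pdgfra, Lcn2 and Ppp1r1a were lost too, and with equal sums those of Ppargc1a, Cldn10 and Aqp6; with robust eBayes those of Ehf, Cldn10, Aqp6 and Lcn2 were, with edgeR that of Aqp6, and with a pseudocount of 5, a mean of at least 50 or voom that of Lcn2. Other causes of these shifts were not tested. No paired analysis was possible because the labels give no replicate numbers and order of deposit pairs nothing. The term for sex was not run, since Y-linked genes were detected in every kidney. Esrrb and Hnf4g, at 12 to 80 reads per kidney, are limited by counting error.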

Other observations

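Of the markers of cells outside the tubule epithelium, 1 of 5 of podocytes was higher (Synpo, limma, adjusted p = 0.0471, a call held in 2 of 10 fits without 1 kidney, those without Rragc +/+ replicate 5 or Rragc S74N/+ replicate 3), and 2 of 6 of fibroblasts and mural cells were (Col1a1 and Pdgfra, log2 fold change 1.19 and 0.87; limma, adjusted p = 0.00047 and 0.0183). Likewise 2 of 8 leukocyte markers were higher (Ptprc and Lyz2, 1.20 and 0.93; limma, adjusted p = 0.00148 and 0.00769), and 3 of 10 of injured tubules (Havcr1, Lcn2 and Cd44, 2.89, 2.15 and 1.44; limma, adjusted p = 0.0143, 0.0446 and 0.0089). The call of Pdgfra was lost without Rragc +/+ replicate 1, 2 or 4 (limma, adjusted p up to 0.0563), that of Havcr1 without Rragc S74N/+ replicate 5 (limma, adjusted p = 0.0511), and that of Lcn2 without Rragc +/+ replicate 1, 2, 4 or 5 or Rragc S74N/+ replicate 2 or 5 (limma, adjusted p up to 0.105). Of 5 endothelial markers 0 passed in the main limma fit and 1 had an unadjusted p under 0.05. The most abundant was Kdr, at 475 and 343 normalized counts (limma, adjusted p = 0.0506). Kdr passed in 6 of 12 other settings on all 10 kidneys, among them robust eBayes, DESeq2 and voom. Ehd3 was next, at 366 and 425.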
